A study of Mus musculus with 6 samples.

Results

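The genes described here are the protein-coding genes of a stretch of mouse chromosome 10 that holds Utrn and Fig4. A gene was a member when its start, taken as its lower coordinate in GENCODE release M21 on GRCm38, lay between 12000000 and 45000000 and its mean over the 6 libraries was at least 10 scaled counts. Scaled counts are the authors' estimated fragments per gene multiplied by 1 factor per library. Gpr6 and Ptprk were left out by name, which gave 119 members among the 16125 genes tested and the 47062 genes in the table. The stretch was chosen by the differences in scaled counts between mutants and controls at Utrn and Fig4. All values of that comparison are therefore a description of these libraries and support nothing.

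Total RNA came from newborn striatum (postnatal day 0), with the subventricular zone included, of mice on a mixed background of C57BL/6J, 129S6 and CD1. All 6 libraries carried Sp9Flox/Flox, floxed alleles of the zinc finger transcription factor gene Sp9. The 3 mutant libraries (Drd2-Cre;Sp9Flox/Flox) had in addition a Cre transgene under control of Drd2, the gene of the dopamine D2 receptor that marks indirect pathway projection neurons, and the 3 control libraries were littermates without Cre. No group had Cre without floxed alleles, so the deletion and the transgene cannot be told apart. The labels do not say whether animals were pooled, so the spread between libraries may be partly technical, and in bulk tissue fewer cells of a type cannot be told apart from less RNA per cell.

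As a check of the labels, Sp9 had 1401, 1319 and 1221 scaled counts in the controls and 493, 461 and 632 in the mutants, a log2 fold change of -1.32 ± 0.11 (SE; adjusted p = 0.00635, limma over all genes). Libraries held 16237067 to 19457784 fragments in genes. Of the marker lists, summed FPKM (the level per transcript length and library depth) of striatal projection neuron genes was 1743 to 1830 in controls and 1597 to 1716 in mutants, and all 10 were detected. The 3 of 5 meningeal fibroblast genes that were tested summed to 2.70 to 3.15 and 3.34 to 4.06, so these sums also did not overlap. The 5 of 6 cortical glutamatergic genes that were tested summed to 7.03 to 21.6 in controls and 8.01 to 52.9 in mutants. Mutant replicates 3 (52.9) and 1 (33.0) lay above all controls, and mutant replicate 2 (8.01) lay within their range. The part of such cells in the results was not tested.

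Genes of a chromosomal stretch share position and not necessarily function. Utrn encodes utrophin, the autosomal relative of dystrophin, which ties the actin cytoskeleton to the dystroglycan complex of the cell surface. Fig4 encodes a lipid phosphatase that works in a complex with the kinase Pikfyve and the scaffold Vac14, sets the level of a phosphoinositide of late endosomes and lysosomes, and is needed for the survival of neurons in mice. The stretch also holds genes for transcription factors (Foxo3, Cited2, Hivep2, Nr2e1), signalling enzymes (Fyn, Map3k5, Sgk1), chromatin proteins (Hdac2) and membrane proteins.

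Upstream sequence is shown for members with the smallest p in the comparison, so that the start regions of Fig4, Hs3st5 and Foxo3 can be set side by side. RefSeq start windows on GRCm38.p6 matched 101 of the 119 members by symbol. Each sequence is the part of the 250 bases before the RefSeq start that lies outside annotated GENCODE exons, 5′ to 3′ on the gene's strand. Capitals mark the GC box GGGCGG on either strand, the element that Sp family proteins are known to bind.
Fig4 (chr10:41303261-41303491, minus strand): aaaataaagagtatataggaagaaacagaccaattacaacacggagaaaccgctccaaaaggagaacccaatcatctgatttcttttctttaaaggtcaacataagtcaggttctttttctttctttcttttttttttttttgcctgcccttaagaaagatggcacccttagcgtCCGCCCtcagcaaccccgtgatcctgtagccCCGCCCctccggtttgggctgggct
Hs3st5 (chr10:36506557-36506806, plus strand): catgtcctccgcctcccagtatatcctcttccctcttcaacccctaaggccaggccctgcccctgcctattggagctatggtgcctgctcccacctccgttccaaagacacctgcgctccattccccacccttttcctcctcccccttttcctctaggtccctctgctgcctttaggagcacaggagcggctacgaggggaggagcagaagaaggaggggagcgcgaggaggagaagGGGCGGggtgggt
Foxo3 (chr10:42276756-42276945, minus strand): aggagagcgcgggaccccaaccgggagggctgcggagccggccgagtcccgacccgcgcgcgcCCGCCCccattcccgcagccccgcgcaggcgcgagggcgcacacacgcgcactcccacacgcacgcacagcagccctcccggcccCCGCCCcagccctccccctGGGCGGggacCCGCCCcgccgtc
The Fig4 stretch of 231 bases had 2 matches and a GC content of 44.2%, that of Hs3st5 (250 bases) 1 match and 62%, and that of Foxo3 (190 bases) 4 matches and 81.6%. The window of Nkain2 lay wholly in an annotated exon. The RefSeq start of Utrn coincides with the edge of an internal exon of longer GENCODE transcripts, so the bases before it are intron of those transcripts and are not shown. In the full 250 bases, 61 of the 101 matched members held a GC box (60.4%), against 59.6% of 10696 tested protein-coding genes with a window and 32.7% of all 32851 windows. The E box CACGTG was in 11 of the 101 (10.9%), against 8.29% and 6.02%. The members' windows thus held a GC box about as often as those of other tested genes.

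Read per length, the levels of the members ran over more than 4 orders of size. The highest mean FPKM over the 6 libraries was that of Rps12, a protein of the small ribosomal subunit, at 1533, followed by Cd24a, a surface glycoprotein of immature neurons, at 580. Marcks, an actin-binding substrate of protein kinase C, had 284, the histone deacetylase gene Hdac2 had 166 and Tspyl4, a relative of nucleosome assembly proteins, had 97.1. None of these 5 differed by more than 0.1 on the log2 scale of scaled counts between mutants and controls. The lowest was Crybg1 at 0.0699. In scaled counts, 87 members had a mean of at least 100 and 30 of at least 1000. Just inside the minimum lay Crybg1 and Rsph4a, with means of 10.9 and 12 scaled counts, and just outside it Enpp3 and Ccn6, with 9.97 and 9.61.

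Of 182 protein-coding genes of the table that start in the window, 61 lay under the minimum and 25 of these were listed at 0 in every library. They included the cluster of trace amine receptors, the Taar family, most of which serve in olfactory neurons. Of 15 Taar genes, 13 were listed at 0 in every library and none exceeded 1.05 scaled counts, about 1 fragment. Ak9, an adenylate kinase gene that starts beside Fig4 on the opposite strand, had a mean of 1.58 and was not tested.

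Most members differed little between mutants and controls. The log2 fold change, on the scale log2(scaled count + 1), was within 0.1 of 0 in 67 of 119, above 0 in 65 and below 0 in 54, with a median of 0.01 against -0.0011 over all 16125 genes. In the limma fit over all genes, 2 members passed the threshold of 0.05 on the adjusted p, Utrn and Fig4, both lower. That is 1.68% of members, where 0.143% of all genes passed, 0.0930% lower and 0.0496% higher, and nothing is read from it because these genes chose the stretch. Every mutant library lay outside the control range in 21 members (17.6%), 14 higher and 7 lower, where 12% of all genes had such groups. At an unadjusted p under 0.05 there were 20 members (16.8%), 13 higher and 7 lower, where 6.42% of all genes passed. The plot of members by position shows these differences.

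**Figure D1:**
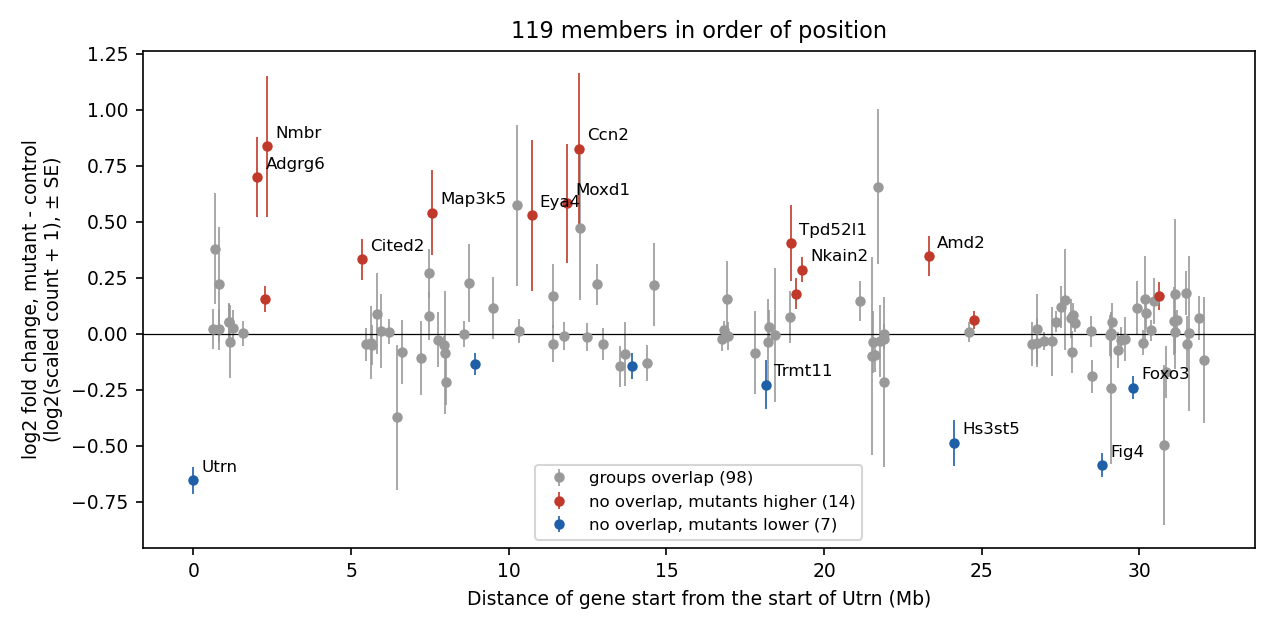
Log2 fold change of each of the 119 members (y axis; log2(scaled count + 1), mutant minus control, bars ± SE) against the distance of the gene start from that of Utrn in Mb (x axis). Red points are the 14 members with all 3 mutants above all 3 controls, blue the 7 with all mutants below, grey the 98 whose groups overlapped. Utrn and Fig4 lie lowest, about 29 Mb apart.

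Utrn (ENSMUSG00000019820; GRCm38 chromosome 10, 12382188 to 12869365, minus strand) is the first member by position. It had 975, 921 and 936 scaled counts in control replicates 1 to 3 and 601, 624 and 574 in mutant replicates 1 to 3. All mutants lay below all controls, by far more than either group's own range. The means were 944 ± 28.1 and 600 ± 24.9 (SD, n = 3 each), a mutant level 0.635 times that of the controls. The log2 fold change was -0.65 ± 0.06 (SE; 95% interval -0.79 to -0.52), and its adjusted p was 0.00635 (limma, over all genes). In FPKM, Utrn had 3.38 ± 0.104 and 2.15 ± 0.0923, so it is a gene of low level per length. On log2(FPKM + 0.5) the difference was -0.55 ± 0.10 (SE) and the adjusted p 0.258 (limma). The 0.5 added to each value makes the difference of a gene at this level smaller, and the SE was also larger than on scaled counts. Without mutant replicate 1 the adjusted p on scaled counts was 0.0500, and Utrn no longer passed (limma).

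Fig4 (ENSMUSG00000038417; chromosome 10, 41188172 to 41303260, minus strand) had 1962, 1987 and 1987 scaled counts in the controls. The mutants had 1389, 1242 and 1328. The controls were nearly identical and all mutants lay well below them. The means were 1979 ± 14.3 and 1320 ± 73.4 (SD, n = 3 each), a mutant level 0.667 times that of the controls. The log2 fold change was -0.59 ± 0.05 (SE; 95% interval -0.71 to -0.46; adjusted p = 0.00635, limma over all genes). FPKM means were 32.5 ± 0.231 and 21.7 ± 1.25, a log2 difference of -0.57 with an adjusted p of 0.0415 (limma). In the fit with no filter on low values, where 28122 genes were tested, the adjusted p was 0.0577 (limma).

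The members next to these differed less. Sf3b5, a splicing factor subunit and the next member after Utrn, had 360 ± 34.7 scaled counts in controls and 364 ± 10.7 in mutants (SD, n = 3 each). On either side of Fig4 among the members, Wasf1, a subunit of the WAVE complex that drives actin branching, had 3812 ± 243 and 3346 ± 298 with overlapping groups, and the zinc finger gene Zbtb24 had 265 ± 9.47 and 265 ± 21.4. The 1 gene annotated within the span of Fig4 that the table also lists is a small nucleolar RNA on the other strand.

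By bins of 3 Mb, the 21 members without overlap were spread over 10 of 11 bins, where 12% of all genes and 13.9% of the rest of chromosome 10 had such groups. With so few members in a bin, no bin is set apart by its count. The bin from 12 to 15 Mb held 4 of its 13 members, that from 30 to 33 Mb 4 of 9, and that from 24 to 27 Mb 3 of 12. The bin from 39 to 42 Mb, the fullest, held 1 of 22, which was Fig4, and the bin from 27 to 30 Mb none of 4. The median size of the difference in a bin ran from 0.02 (27 to 30 Mb) to 0.19 (15 to 18 Mb, only 2 members).

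Among genes of transcription and chromatin, 25 members by a grouping made after the values were seen, 3 were higher and 2 lower without overlap, where 5.46% of all genes were higher and 6.49% lower in this way. Foxo3, a forkhead factor held in check by insulin signalling, had 1933, 1992 and 1979 scaled counts in controls and 1702, 1572 and 1725 in mutants. Its groups were far apart for their spread, with a ratio of 0.847 and a log2 fold change of -0.24 ± 0.05 (SE), which did not pass over all genes (adjusted p = 0.207, limma). Cited2, a co-regulator that competes for the coactivator CBP, had 293, 282 and 273 in controls and 350, 328 and 393 in mutants, a ratio of 1.26. The chromatin reader gene L3mbtl3 had a ratio of 0.904, Sobp 1.12 and Eya4, a coactivator with phosphatase activity, 1.45, from only 6.32, 12.4 and 11.4 scaled counts in controls and 13.7, 12.6 and 17.3 in mutants, and with overlapping FPKM groups. More abundant genes of this group had close means, with Hivep2 at 2074 ± 84.0 and 2078 ± 118, Hdac2 at 5458 ± 123 and 5494 ± 219, and the transcription cofactor Bclaf1 at 5292 ± 168 and 5105 ± 102 (SD, n = 3 each).

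Of 13 receptor and signalling genes, 4 were higher without overlap and none lower, where 5.46% and 6.49% of all genes were, and the grouping was made after the values were seen. Adgrg6, an adhesion receptor known for its role in peripheral myelin, had 44.2, 48.5 and 53.7 scaled counts in controls and 81.0, 93.1 and 66.8 in mutants. The lowest mutant stood above the highest control, the ratio was 1.65 and the log2 fold change 0.70 ± 0.18 (SE; adjusted p = 0.343, limma over all genes). Nmbr, the neuromedin B receptor, had 10.5, 8.26 and 7.99 in controls and 22.5, 12.6 and 16.1 in mutants, so its ratio of 1.91 rests on few fragments. Map3k5, a stress-activated kinase, had 89.5, 80.5 and 58.2 in controls and 125, 110 and 95.7 in mutants, a ratio of 1.45, but its FPKM groups overlapped. Rnf217, a ubiquitin ligase gene, had a ratio of 1.13. Fyn, a Src family kinase of axons and synapses, had 5515 ± 122 and 5394 ± 124 scaled counts (SD, n = 3 each), and its log2 fold change of -0.03 had a 95% interval of -0.13 to 0.06. Pde7b, a cyclic AMP phosphodiesterase abundant in striatum, had 1863, 2543 and 2269 in controls and 1827, 2051 and 1840 in mutants, with overlapping groups.

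Among 25 genes of the cell surface, matrix and cytoskeleton, 4 were higher without overlap and 1, Utrn, lower (5.46% and 6.49% of all genes). Nkain2, a membrane protein that binds the sodium pump, had 1316, 1264 and 1275 scaled counts in controls and 1613, 1618 and 1475 in mutants. Its ratio was 1.22 and its log2 fold change 0.29 ± 0.05 (SE; adjusted p = 0.154, limma over all genes), the smallest p after Utrn and Fig4. Ccn2, a secreted matrix protein also called connective tissue growth factor, had 39.0, 44.4 and 35.4 in controls and 48.8, 56.2 and 128 in mutants, so mutant replicate 3 set most of its ratio of 1.96. Tpd52l1 had a ratio of 1.32 and Marcks 1.04. The matrix laminin gene Lama2, whose protein binds dystroglycan as agrin does, had 63.4 ± 8.54 and 74.2 ± 12.7, and Lama4, a laminin of vessels, had 311 ± 33.2 and 300.2 ± 13.6 (SD, n = 3 each). Ahi1, a protein of the ciliary transition zone, had 3995 ± 278 and 3986 ± 133.

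Fig4 had the largest difference among the 13 genes of endosomes, lysosomes, peroxisomes and autophagy, of which 10 differed by under 0.1 on the log2 scale. Vta1, which assists the enzyme that takes apart the membrane-cutting ESCRT complex, was higher without overlap (783 ± 21.9 and 873 ± 40.2 scaled counts; SD, n = 3 each). The endosomal genes Stx7 and Snx3 had log2 fold changes of -0.01 and -0.04, Atg5 of autophagy 0.07 and the peroxisome genes Pex3 and Pex7 0.05 and 0.08.

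Among 17 transporter and enzyme genes, 2 were higher and 1 lower without overlap (5.46% and 6.49% of all genes). Hs3st5, an enzyme that adds sulfate to heparan sulfate chains, had 554, 718 and 613 scaled counts in controls and 477, 444 and 417 in mutants. Its groups were apart, although the controls spread widely, and the log2 fold change was -0.49 ± 0.10 (SE; adjusted p = 0.207, limma over all genes), a ratio of 0.710. Amd2, a near copy of Amd1 and thus a gene whose fragments may have been split with it, had 264, 279 and 253 in controls and 367, 323 and 325 in mutants. Amd1, an enzyme of polyamine synthesis, had 1153 ± 43.9 and 1222 ± 49.2 (SD, n = 3 each), with a smaller difference in the same direction. Moxd1, a monooxygenase gene, had a ratio of 1.47 from 40.0 ± 12.4 and 58.8 ± 9.98, but its FPKM groups overlapped. Slc35d3, a transporter gene known from striatal projection neurons, had 629 ± 71.4 and 759 ± 91.1 with groups that overlapped.

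Of 11 genes of ribosomes, RNA and protein synthesis, 2 were lower without overlap and none higher (6.49% and 5.46% of all genes). Hbs1l, which rescues stalled ribosomes, had a ratio of 0.911 and Trmt11, a transfer RNA methyltransferase subunit, one of 0.853. Rps12 had 7071, 9186 and 8247 scaled counts in controls and 7761, 8008 and 7876 in mutants, so the mutants lay within the control range. The remaining 15 members, unassigned to a role, had no gene without overlap. The plot by library shows each of the 21 members without overlap.

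**Figure D2:**
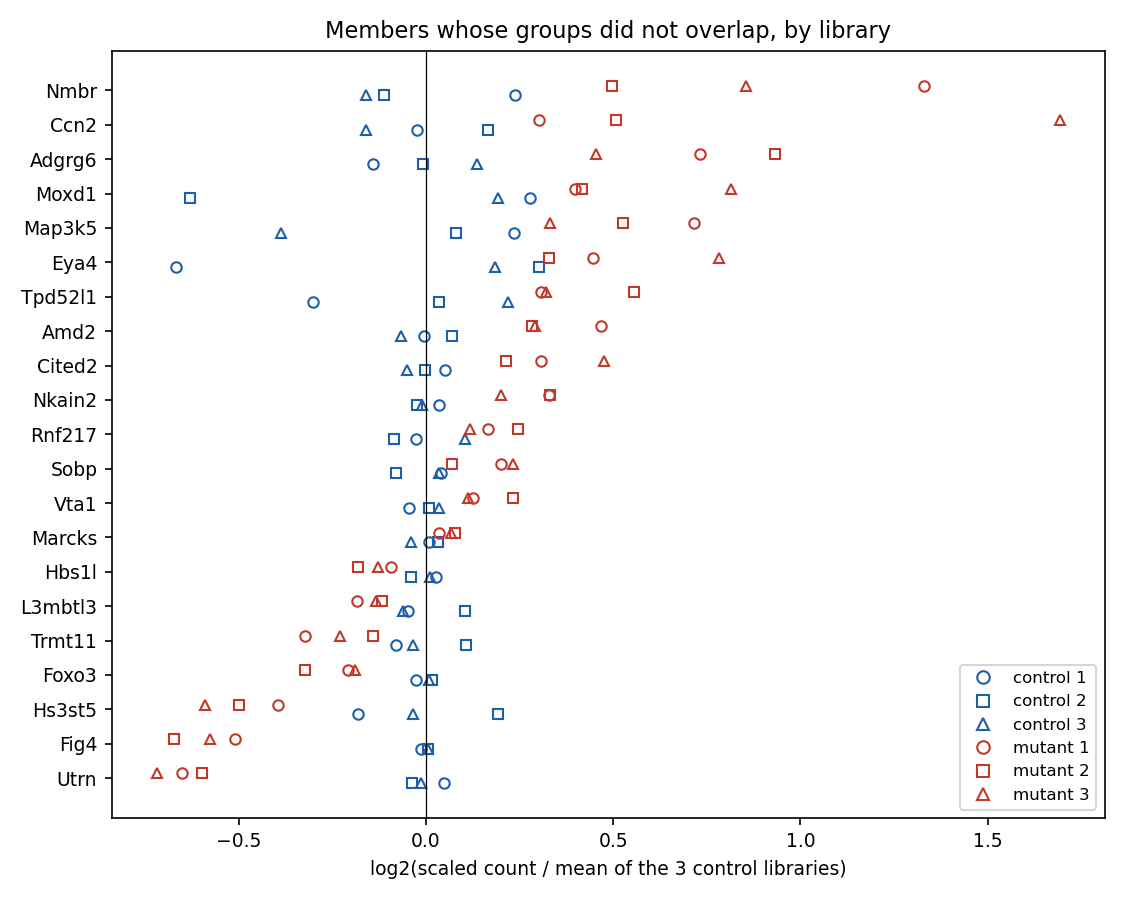
Scaled count of each library relative to the mean of the 3 controls, on a log2 scale (x axis), for the 21 members whose groups did not overlap (rows, ordered by fold change). Blue marks are controls, red marks mutants, and circles, squares and triangles are replicates 1, 2 and 3. The controls of Fig4 lie almost on 1 point, and mutant replicate 3 stands far out for Ccn2.

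The spread within each group was read next. Over the 87 members with a mean of at least 100 scaled counts, the median coefficient of variation was 5.05% in controls and 6.19% in mutants, against 5.98% and 5.42% over 11494 genes at that level. Plagl1, an imprinted zinc finger gene, varied most of these in the mutants (37.9%), with 398, 270 and 320 scaled counts in controls and 399, 302 and 629 in mutants. Nr2e1, a nuclear receptor of neural stem cells, had 116, 163 and 205 in the mutants and 134 to 145 in the controls, and the actin regulator gene Abracl had 224, 189 and 309 against 235 to 252. In these 3 and in Ccn2, mutant replicate 3 was the highest library, as it was in the cortical marker sum. Mutant replicate 1, whose cortical sum (33.0) also lay above all controls, lay below all controls in Nr2e1 and Abracl. In Plagl1 (399 against 398) and Ccn2 (48.8 against 44.4) it lay above the highest control. Whether cortical cells in these libraries bear on these genes was not tested. Ranked among all 6 libraries, which mixes spread with the mutant comparison, mutant replicate 2 was highest in 27 members (22.7%) against 15.9% of all genes, and mutant replicate 3 in 24 (20.2%) against 18.3%. Control replicate 3, the only male library by Xist and Y-linked genes, was highest in 9 members (7.56%) against 15.8% and lowest in 26 (21.8%) against 15%.

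Between pairs of libraries, the median absolute log2 difference of the members exceeded that of all tested genes in 11 of 15 pairs and in 4 of the 6 pairs within a group. Within groups it ran from 0.11 (mutant replicates 1 and 2) to 0.16 (mutant replicates 2 and 3), and between groups from 0.12 to 0.17. Over all genes these ranges were 0.11 to 0.15 and 0.12 to 0.14. Among the other 539 tested protein-coding genes of chromosome 10, 75 (13.9%) had groups without overlap and 1 passed the limma fit, and their median absolute log2 fold change was 0.064, against 0.082 for the members and 0.078 for all genes. The members' median difference between libraries exceeded theirs in 15 of 15 pairs. Their median level was 578 scaled counts against 369 for the members, and over genes with a mean of at least 100 the members exceeded them in 14 of 15 pairs.

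**Figure D3:**
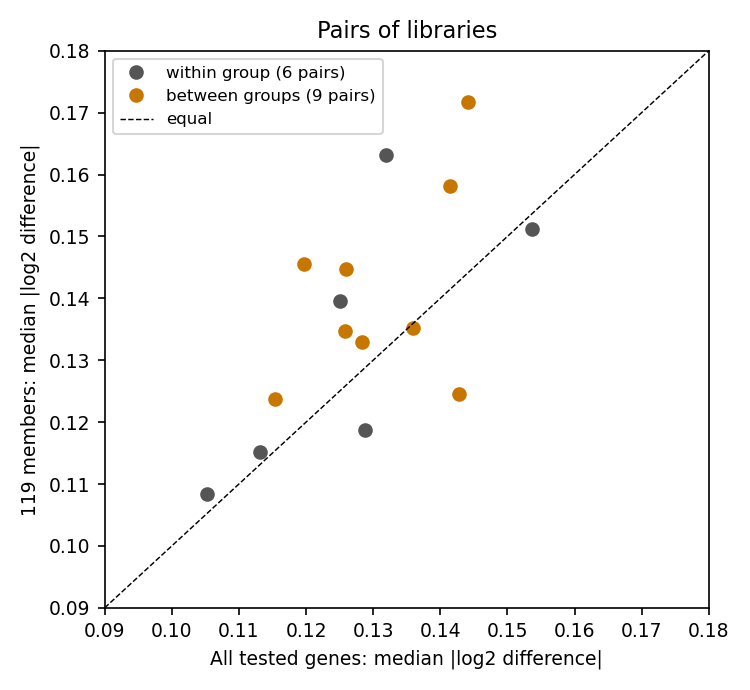
Median absolute log2 difference between 2 libraries over the 119 members (y axis) against the same over all 16125 tested genes (x axis), 1 point for each of 15 pairs, grey within a group and orange between groups. The dashed line marks equal values, and 11 pairs lie above it.

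The partners of these genes elsewhere in the genome were read from 10 lists of 131 genes that work with a member. Of 124 tested, none passed the limma fit over all genes on scaled counts or on FPKM, where 0.143% and 0.0434% of all genes passed. An unadjusted p under 0.05 was reached by 7 of them (5.65%, against 6.42% of all genes), 3 with higher and 4 with lower values in the mutants. Of the 124, 9 (7.26%) had groups without overlap where 12% of all genes did. Their median log2 fold change was -0.0037. That no partner passed is near the share of all genes, so it does not show whether partners followed Utrn or Fig4.

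In the dystrophin-associated complex, 21 genes were tested and had a median of -0.0054. Dmd, which encodes dystrophin, had 453 ± 60.8 scaled counts in controls and 527 ± 73.2 in mutants (SD, n = 3 each), with groups that overlapped. Dag1, the dystroglycan gene, had 3306 ± 153 and 3233 ± 149. Sgcz, a sarcoglycan subunit, had 55.7 ± 12.2 and 28.3 ± 7.93 (SD, n = 3 each), with groups apart and a log2 fold change of -0.97 ± 0.27 (SE; adjusted p = 0.422, limma over all genes). Sgcz was thus lower in every mutant, as Utrn was, without passing.

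The 14 tested genes of the PIKfyve complex and related phosphatases stayed between -0.13 and 0.07. Pikfyve had 1414 ± 102 and 1357 ± 60.0 scaled counts and Vac14 871 ± 22.3 and 883 ± 24.6 (SD, n = 3 each), so neither partner of Fig4 differed by more than its spread. Pik3r4, a regulatory subunit of the lipid kinase that makes the substrate of Pikfyve, had a log2 fold change of -0.13 and Inpp5f -0.07. For Pik3r4 all mutants lay below all controls on scaled counts, but its FPKM groups overlapped, with a difference of -0.02.

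Among 9 tested FOXO, SGK and sestrin relatives, 4 had an unadjusted p under 0.05, 2 in each direction, where 6.42% of all genes did. This was 1 of 10 lists, which together held 7 such genes. Sesn2, a stress-induced regulator of nutrient signalling, had 55.8, 38.2 and 50.2 scaled counts in controls and 81.0, 87.3 and 109 in mutants (log2 fold change 0.94 ± 0.20, SE; adjusted p = 0.207, limma over all genes). Its relative Sesn3 had 413 ± 36.1 and 514 ± 12.1 (SD, n = 3 each). Sesn1, the member of that family in the stretch, had 657 ± 24.2 and 644 ± 20.5. Foxo1 had 6118 ± 415 and 4589 ± 789, with a log2 fold change of -0.43 (adjusted p = 0.409, limma), in the same direction as Foxo3. Both Sesn2 and Sesn3 had all mutants above all controls.

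The other lists held mostly small differences. The 10 WAVE complex genes ran from -0.06 (Abi2) to 0.12, with Cyfip1 at 0.09, and the 17 ciliary genes from -0.17 (Mks1) to 0.09, with Cc2d2a at -0.11. The 15 peroxins ran from -0.08 to 0.21 (Pex16), with Pex5l at 0.19, and the 4 tested Src family kinases from -0.02 to 0.19 (Lyn), with Yes1 at 0.09. The 14 genes of class I deacetylase complexes ran from -0.13 (Chd4) to 0.12, and the 11 autophagy genes from -0.12 to 0.31 (Atg10), with Gabarap at 0.09. Of 9 laminins, Lamb3 had the largest value (1.10) from 8.60 ± 3.78 and 18.9 ± 4.50 scaled counts, and Lamc3 the smallest (-0.31). The plot of partner genes sets them beside the members.

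**Figure D4:**
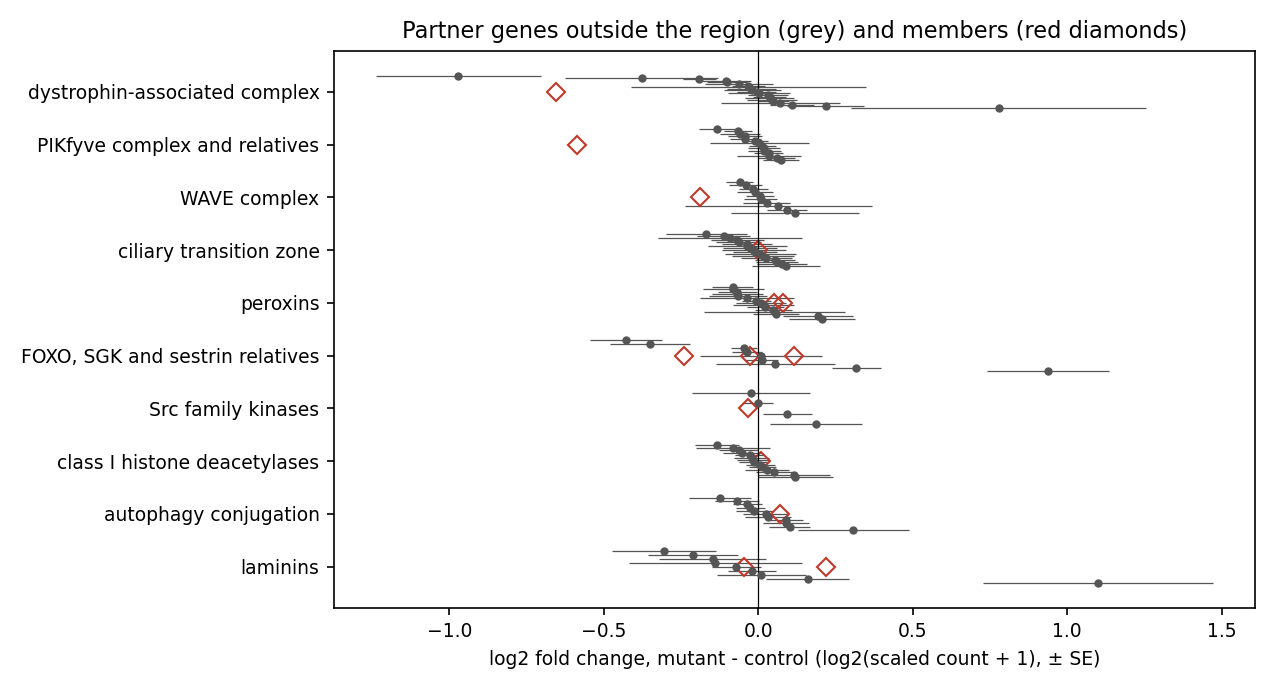
Log2 fold change (x axis; log2(scaled count + 1), mutant minus control, bars ± SE) of the 124 tested partner genes outside the stretch, in grey, by list (rows), with the members of the stretch as red diamonds. Utrn and Fig4 stand to the left of most of their partners, and no partner passed the threshold.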

How the data were processed

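RNA-seq of 6 libraries was analysed from 1 deposited table with 1 row per Ensembl gene. The authors deposited, per the file headers, an FPKM and a count column for each library. TopHat and Cufflinks 2.1.1 and the build GRCm38.p4 are named per the submitters' processing notes; for the annotation, the strand setting and reads with several alignments, "not given in the sources used here" applies, so genes that overlap (16 members overlap another tested coding gene) may share fragments. The deposited count columns are a signal, not whole counts: 97.7 to 97.9% of values of at least 0.01 lay within 0.1 of a whole multiple of 1 step per library (0.970 to 1.15), so no count test was run, as the design allowed. Columns were matched by the sample codes in the labels. GENCODE M21 named 46483 of 47062 genes.

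Values of log2(scaled count + 1) were analysed with limma (version 3.58.1; R 4.3.3) and a variance trend, over genes with a mean of at least 10, without covariates, two-sided, with Benjamini-Hochberg adjustment at 0.05. Simulated data for mutant against control (16023 genes) were made at a dispersion of 0.002261. At that dispersion, 92% of genes changed 1.5-fold and 100% of those changed 2-fold were recovered, with 8 false calls. Recovery at a wider spread was not tested. In the libraries, Utrn and Fig4 passed at log2 fold changes of -0.65 and -0.59, while Adgrg6 (0.70) and Sgcz (-0.97) did not. A gene that did not pass is therefore not shown to be unchanged. Members and lists were chosen with earlier results of these data known. Named were Utrn, Fig4, members past the threshold, up to 30 without overlap, the 5 highest in FPKM, the first and last by position, those beside the minimum, and 2 genes per partner list, of which some are not reported here; others were named for role, place or spread after their values were seen. Alternatives were other pseudocounts, filters, scalings, FPKM, robust limma, a replicate block, sex and each library left out.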

Additional observations from a re-analysis of the deposited data

How the results depend on the processing

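Utrn and Fig4 stayed lower in every one of 17 alternatives, from -0.68 to -0.55 and from -0.62 to -0.54 (log2), and Sp9 from -1.46 to -1.08. Members past the threshold (limma) numbered 2. With no filter 1 member passed and Fig4 was lost (-0.59, adjusted p = 0.0577), as was Sp9 (-1.32, 0.0577). On log2(FPKM + 0.5) 1 member passed and Utrn was lost (-0.55 ± 0.10, SE; adjusted p = 0.258, limma), against -0.65 ± 0.06 on scaled counts. The added 0.5 makes the difference of so low a gene smaller, and the SE was also larger. Which of these lost Utrn was not tested. With 1 library left out there were 1 to 2, since Utrn (-0.68 to -0.62) was lost without mutant replicate 1 (-0.66, adjusted p = 0.0500). Over all alternatives the limma adjusted p ran from 0.0037 to 0.258 for Utrn and to 0.0577 for Fig4. All genes past the threshold numbered 23, and 4 with no filter, 7 on FPKM, 35 under the replicate block, 12 with sex as a covariate and 8 to 32 with 1 library left out.

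Members without overlap numbered 21 (17.6%, against 12% of all genes), and 18 at a mean of at least 50. With 1 library left out they numbered 26 to 42 (32 without control replicate 1, 34 without control replicate 2, 32 without mutant replicate 2, 42 without mutant replicate 3). Fewer samples make overlap rarer by construction, for any gene. The share over all genes under these alternatives is not given here, so nothing about the members is read from these counts. The members' median absolute log2 fold change exceeded that of the rest of chromosome 10 by 0.018, by 0.0083 at a mean of at least 50, by 0.0084 on FPKM and by 0.011 to 0.030 with 1 library left out. No partner gene passed in any alternative. Pairs of libraries in which members differed more than all genes numbered 8 to 12.

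Signs turned only for 5 named members, none of them past the threshold: Crybg1 (0.0022 as reported) at a pseudocount of 5 (-0.0055), with quantile normalization (-0.065), on FPKM (-0.0048) and with sex as a covariate (-0.18); Rps12 with quantile normalization (0.012); Hdac2 (-0.0080) and Tspyl4 (-0.016) with sex as a covariate. With 1 library left out, Crybg1 ran from -0.18 to 0.27, Rps12 from -0.14 to 0.045, Hdac2 from -0.013 to 0.042, Tspyl4 from -0.016 to 0.029 and Prdm1 (-0.12 as reported) from -0.24 to 0.084. The cause was not tested.

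The replicate numbers showed no pairing of the samples: the correlation of deviations between same-numbered libraries was -0.072, 0.012 and -0.16. With 3 libraries per group, these values cannot show that the samples were unpaired. With the replicate block, 2 members passed, Utrn at an adjusted p of 0.0261 and Fig4 at 0.0258 (limma). Control replicate 3 is the only male library, so the fit with sex repeats the fold changes without it. The fits with a block, sex or robust limma do not change which groups overlap.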
